A study of Mus musculus with 11 samples.

Results

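Complement is a cascade of plasma and tissue proteins, and 9 of its genes are described here across the RNA-Seq libraries of GL261 tumours: the recognition chains C1qa, C1qb and C1qc, the central and activating components C3, C4b and Cfb, and the anaphylatoxin receptors C3ar1, C5ar1 and C5ar2. They were chosen by name, as members of the pathway, from the 50686 genes of the count tables. GL261 is a mouse glioma line, injected into the brain of C57BL/6 mice at 6 weeks of age, which was 3 weeks after tamoxifen, and tumours were collected 3 weeks after tumour initiation. Whole tumours (bulk, RNA from formalin-fixed, paraffin-embedded tissue) came from 3 Rheb1 fl/fl mice (labelled WT, tumours 35, 38 and 110) and 3 Cx3cr1-Rheb1 Δ/Δ mice (labelled Rheb1 KO, tumours 36, 37 and 26). Tumour-associated microglia, called TAM-MG and sorted as CD11b+ CD45low cells, came from 2 Rheb1 fl/fl mice (libraries 74 and 78) and 3 Rheb1 Δ/Δ mice (libraries 54, 63 and 65). All groups carried floxed Rheb1 and received tamoxifen, but the Rheb1 fl/fl mice had no Cre. In the others the Cx3cr1 promoter drives the inducible Cre, so that Rheb1 is deleted in Cx3cr1-expressing cells, which include microglia and some other myeloid cells, while GL261 cells keep the gene.

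C1q is the recognition molecule of the classical pathway and is assembled from the products of C1qa, C1qb and C1qc, which in the brain are made mainly by microglia and macrophages. C4b and C3 encode the central proteins that are cleaved when the cascade runs, and Cfb encodes factor B, the protease subunit of the alternative pathway. C3ar1 and C5ar1 encode the receptors for the released fragments C3a and C5a, and C5ar2 encodes a second C5a receptor that does not couple to G proteins.

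Total counts ran from 14940787 to 21991348 in bulk tumours and from 20765767 to 29947977 in TAM-MG. Values of single genes are CPM, counts scaled to library size with TMM factors, unless they are called TPM. Rheb, the targeted gene, stood at 235 to 348 CPM in the 3 Rheb1 fl/fl tumours and at 125 to 225 CPM in the 3 Cx3cr1-Rheb1 Δ/Δ tumours, and at 86.5 and 164 CPM in Rheb1 fl/fl and 67.8 to 71.2 CPM in Rheb1 Δ/Δ TAM-MG. The groups did not overlap in either experiment, although these counts also hold reads from exons that are not deleted. Summed over 10 genes, markers of resting microglia reached 18642 to 33063 CPM in TAM-MG, against 376 to 1280 CPM for 10 markers of monocytes and monocyte-derived macrophages and 8.74 to 26.3 CPM for 7 T cell markers. The sum of 7 granulocyte markers was 168 to 255 CPM in Rheb1 fl/fl and 307 to 335 CPM in Rheb1 Δ/Δ TAM-MG, without overlap. Liver markers, a check because the liver secretes most plasma complement, summed to at most 4.34 CPM over 5 genes in any library. Calls were made with edgeR's quasi-likelihood test where the Benjamini-Hochberg value over all genes tested was under 0.05 and the change reached 1.5-fold. Fold changes compare Rheb1 Δ/Δ with Rheb1 fl/fl.

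The 3 C1q genes lie side by side on chromosome 4 (GRCm38, minus strand), C1qb from 136880129 to 136886187, C1qc from 136889804 to 136893065 and C1qa from 136895917 to 136898803. C3 (57203970 to 57228136), C4b (34728380 to 34743882) and Cfb (34856374 to 34862518) are on chromosome 17. C3ar1 is on chromosome 6 (122847138 to 122856161), and C5ar2 (16234585 to 16244154) and C5ar1 (16246743 to 16259540) are neighbours on chromosome 7. Promoter sequences were available from RefSeq (GRCm38.p6) for 6 of the 9 genes. Those of C1qb and C1qc are shown as a pair of neighbours whose levels moved together in bulk tumours, and those of C3 and C3ar1 because these tested members had 2 of the 3 lowest fold changes there. Of the 250 bases upstream of the RefSeq start, those outside the GENCODE gene are printed, and capitals mark matches to the motifs searched.
C1qb, chr4:136886201-136886450, minus strand: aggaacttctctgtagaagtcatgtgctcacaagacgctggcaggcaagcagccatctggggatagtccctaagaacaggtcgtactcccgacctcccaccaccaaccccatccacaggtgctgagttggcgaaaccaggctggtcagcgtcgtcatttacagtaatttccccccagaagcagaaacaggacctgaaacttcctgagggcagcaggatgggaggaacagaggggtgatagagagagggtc
C1qc, chr4:136893066-136893164, minus strand: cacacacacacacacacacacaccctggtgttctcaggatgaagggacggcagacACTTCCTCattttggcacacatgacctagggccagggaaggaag
C3, chr17:57228137-57228386, minus strand: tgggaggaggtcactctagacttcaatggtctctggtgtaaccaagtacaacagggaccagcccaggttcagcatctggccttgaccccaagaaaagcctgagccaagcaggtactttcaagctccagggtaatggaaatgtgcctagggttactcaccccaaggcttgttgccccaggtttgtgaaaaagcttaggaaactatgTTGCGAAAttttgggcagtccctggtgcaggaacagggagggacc
C3ar1, chr6:122856162-122856407, minus strand: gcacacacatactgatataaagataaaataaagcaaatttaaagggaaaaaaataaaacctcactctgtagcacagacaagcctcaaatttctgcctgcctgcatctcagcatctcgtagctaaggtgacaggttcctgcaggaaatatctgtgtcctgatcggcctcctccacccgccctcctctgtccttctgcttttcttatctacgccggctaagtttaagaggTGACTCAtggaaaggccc
Motifs were searched on both strands of the 250 bases upstream of each RefSeq start, as TGANTCA for AP-1, GAGGAAGT for PU.1, TTGCNNAA for C/EBP, TTCNNNGAA for the GAS element and, for the interferon-stimulated response element, GAAA followed by any 2 bases and GAAA again. The C1qc window held the PU.1 letters on the opposite strand, which 2.44% of all 32851 promoters hold in windows of the same length. They begin 44 bases before the end of the printed sequence, which is 195 bases upstream of the RefSeq start. The C3 window held a C/EBP match (9.56% of promoters) that begins 45 bases before the end of the printed sequence, and the C3ar1 window an AP-1 match (6.75%) that begins 18 bases before it. For C5ar2, 1 of its 2 RefSeq windows held C/EBP matches 166 and 210 bases upstream. No GAS match (7.02% of promoters) and no interferon-stimulated response element (2.98%) was found in the windows of these 6 genes, and none of the motifs in those of C1qb and C5ar1.

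In bulk tumours all 7 members that passed the filter on low counts had a negative log2 fold change, against 49.8% of the 17028 genes tested, with a median of -1.15 against 0.00 over all genes tested. The quasi-likelihood test of edgeR called 0 of the 7 and 0 of all genes (0.0%). At an unadjusted p under 0.05, 4 of the 7 were lower (C1qb, C1qc, C3 and C3ar1), as were 883 of all genes (5.19%). The likelihood ratio test and DESeq2 each called 1 member, C3ar1, where they called 2.25% and 2.78% of genes tested. Cfb and C5ar2 did not pass the filter and are described by their libraries. In CPM the groups did not overlap for 4 of 9 members (C1qb, C1qc, C3ar1 and C5ar2), all lower in the Cx3cr1-Rheb1 Δ/Δ group. This held for 9.23% of genes tested, a share that covers only genes that passed the filter, which C5ar2 did not. In the deposited TPM, which hold 7 of the 9 genes, the groups did not overlap for 6 of 7, with the lower values in the Cx3cr1-Rheb1 Δ/Δ group, against 10.1% of genes. C3, C4b and Cfb were thus without overlap in TPM but not in CPM, where Cfb had 0 to 2 counts per tumour. By limma on log2(TPM + 1) 0 of these were called, against 0.0079% of genes.

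In TAM-MG 9 of 9 members were tested. There 3 had a negative log2 fold change (46.5% of all genes) and 6 a positive one, and the median was 0.11 against 0.08 over all 14872 genes tested. No member passed the quasi-likelihood test (0.0% of all genes called), the likelihood ratio test (1.65%), DESeq2 (3.21%) or limma on log2(TPM + 1) (0.0%). At an unadjusted p under 0.05 the quasi-likelihood test gave 0 of 9 (7.77% of all genes), and limma on log2(TPM + 1) gave 1, Cfb (9.51%).

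**Figure D1:**
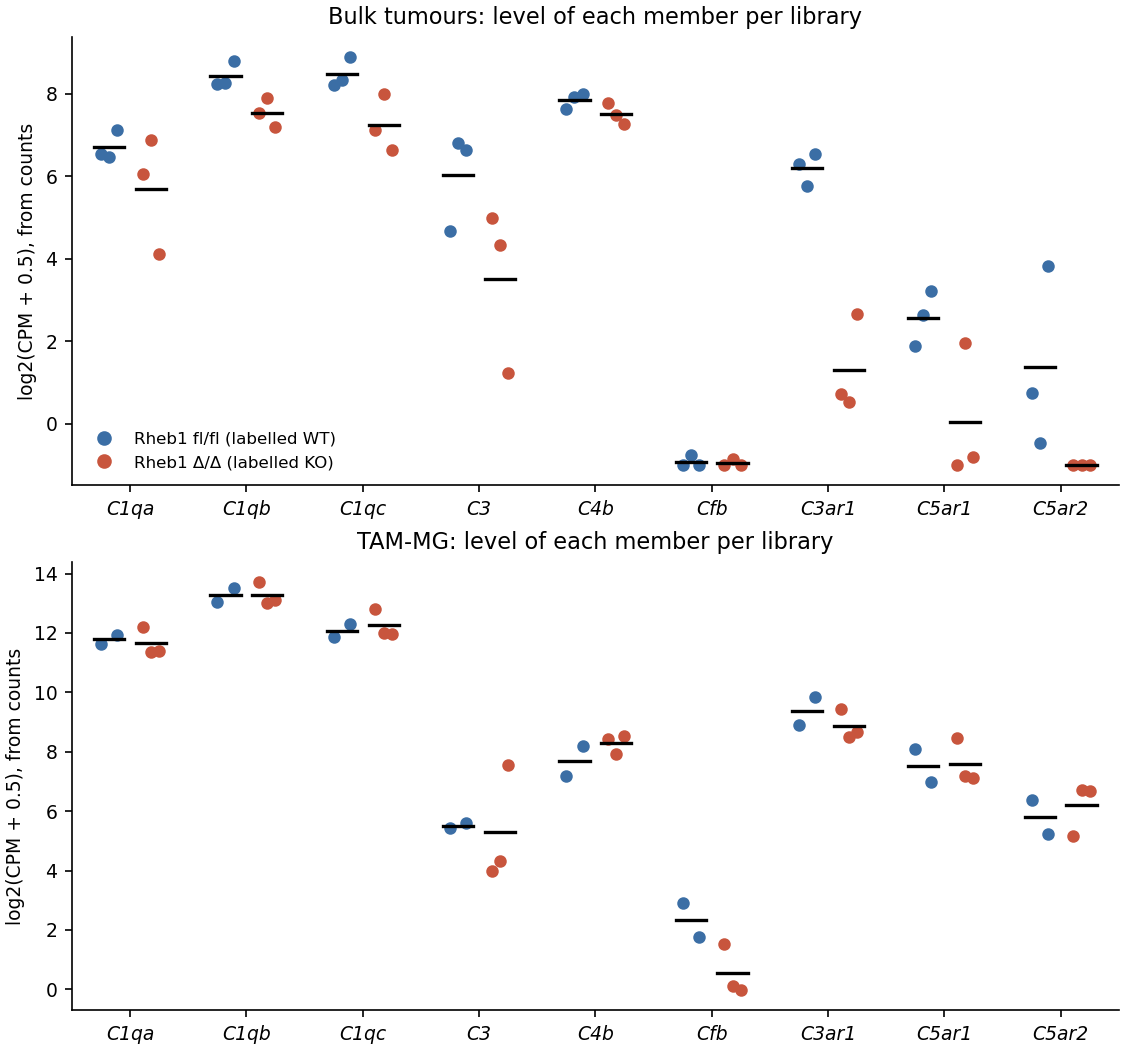
Level of each gene in every library as log2(CPM + 0.5), in bulk tumours (top) and TAM-MG (bottom), with Rheb1 fl/fl in blue, Rheb1 Δ/Δ in red and the mean of each group as a bar. In bulk tumours the points of C3ar1, C1qb, C1qc and C5ar2 separate by genotype, C5ar2 having no counts in the Cx3cr1-Rheb1 Δ/Δ group. In TAM-MG those of all genes but Cfb overlap. Values are not per length, so genes are not to be ranked from this plot.

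Of the recognition chains, C1qa encodes the A chain. It stood at 93.3, 88.3 and 139 CPM in Rheb1 fl/fl tumours 35, 38 and 110 and at 65.8, 117 and 16.9 CPM in Cx3cr1-Rheb1 Δ/Δ tumours 36, 37 and 26. Tumour 37 lay among the Rheb1 fl/fl tumours and tumour 26 far below all others, so that the groups overlapped. Its log2 fold change was -0.69 (standard error 0.56, adjusted p = 0.773, edgeR), -0.23 without tumour 26 and -1.37 without tumour 37.

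C1qb, the B chain, stood at 301, 307 and 445 CPM in Rheb1 fl/fl and at 186, 237 and 146 CPM in Cx3cr1-Rheb1 Δ/Δ tumours. Every Cx3cr1-Rheb1 Δ/Δ tumour was below every Rheb1 fl/fl tumour, which in CPM held for 9.23% of genes tested. On the log2 scale it differed by -0.89 (standard error 0.31, adjusted p = 0.389, edgeR).

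C1qc, the C chain, stood at 299, 320 and 475 CPM in Rheb1 fl/fl and at 139, 256 and 99.3 CPM in Cx3cr1-Rheb1 Δ/Δ tumours, again without overlap. Its difference was -1.15 on the log2 scale (standard error 0.38, adjusted p = 0.358, edgeR). The chains C1qb and C1qc varied together over the 6 bulk libraries (Pearson r = 0.98 of log2 CPM, a description over libraries of both genotypes), and C1qa with either of them at r = 0.83 and 0.88.

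In TAM-MG the C1q chains were among the most abundant transcripts of the library. Together they took 1.496 to 2.56% of all counts, against 0.0249 to 0.109% in bulk tumours, and by TPM C1qb was the 4th to 8th highest of 34839 genes. C1qb stood at 8487 and 11716 CPM in Rheb1 fl/fl libraries 74 and 78 and at 13397, 8223 and 8760 CPM in Rheb1 Δ/Δ libraries 54, 63 and 65. Library 54 was the highest and the other Rheb1 Δ/Δ libraries were at or near the lower Rheb1 fl/fl library. The log2 fold changes of C1qa, C1qb and C1qc were -0.09, 0.00 and 0.23 with 95% confidence intervals of -0.97 to 0.79, -0.87 to 0.88 and -0.71 to 1.16, so that differences of up to about these bounds could not be told from none.

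Whether the genotypes differed by unequal amounts in the 2 RNA sources was tested as an interaction in a fit of 11 libraries and 21342 genes. The quasi-likelihood test called 0.225% of genes and 0 of the 9 members, the likelihood ratio test 3.91% of genes and 2 members, and DESeq2 5.65% of genes and 1 member. For C1qc the interaction was 1.40 on the log2 scale (standard error 0.58, adjusted p = 0.371, edgeR), for C1qb 0.92 (adjusted p = 0.430) and for C1qa 0.63 (adjusted p = 0.947). Positive values mean a higher fold change in TAM-MG than in bulk tumours.

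The ratio of C1qc to C1qa had a different range in each RNA source. Per length (RPKM), C1qc stood at 1.14 to 3.16 times the level of C1qa in the 6 bulk libraries and at 0.621 to 0.834 times in the 5 TAM-MG libraries, and the ranges did not overlap. In TPM the same ratio was 1.25 to 3.25 in bulk and 0.765 to 1.02 in TAM-MG. C1qb relative to C1qa showed no such separation, with 1.94 to 8.26 in bulk and 2.54 to 3.11 in TAM-MG (RPKM), where 8.26 was tumour 26. Fixed tissue and sorted cells also differ in RNA quality, and its part in the ratio was not tested. How many other genes had a ratio to C1qa that separated the sources was not counted. Of all genes tested, 20.5% were called higher and 32.4% lower in TAM-MG, so the separation is not shown to be particular to C1qc. Between genotypes the C1qc ratio did not overlap in TAM-MG, with log2 ratios from CPM of 0.21 and 0.37 in Rheb1 fl/fl and 0.63, 0.62 and 0.58 in Rheb1 Δ/Δ libraries. It was higher by 0.33 in Rheb1 Δ/Δ (two-sided exact permutation test, p = 0.2, the smallest that 2 against 3 libraries allow, and adjusted p = 0.667 over 20 ratios), and 15.3% of genes tested had a ratio to C1qa that was higher without overlap. The exact permutation test gave p = 0.4 for C1qb in TAM-MG and p = 1.0 for both ratios in bulk tumours, where 0.1 is the smallest possible.

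**Figure D2:**
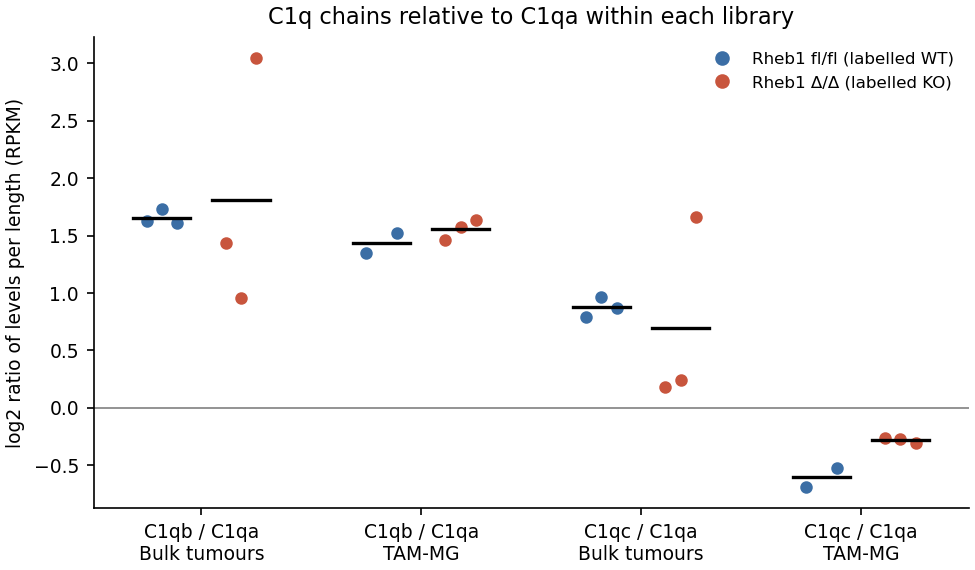
C1qb and C1qc relative to C1qa as the log2 ratio of levels per length within each library, by RNA source, with Rheb1 fl/fl in blue, Rheb1 Δ/Δ in red and group means as bars. All C1qc ratios of bulk tumours lie above 0 and all those of TAM-MG below 0. The C1qb ratios of bulk tumours reach below and above those of TAM-MG, with tumour 37 the lowest and tumour 26 the highest.

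C3, the component on which all pathways converge, stood at 25.1, 111 and 99.0 CPM in Rheb1 fl/fl and at 31.3, 19.6 and 1.83 CPM in Cx3cr1-Rheb1 Δ/Δ tumours. Tumour 35 lay within the range of the Cx3cr1-Rheb1 Δ/Δ tumours and tumour 26 was again the lowest. The genotypes differed by -2.15 on the log2 scale (standard error 0.85, adjusted p = 0.472, edgeR), and this value ran from -2.86 to -1.62 when 1 library was left out. In TPM the groups did not overlap, with 6.28, 21.4 and 27.7 TPM in Rheb1 fl/fl and 5.11, 3.31 and 0.451 TPM in Cx3cr1-Rheb1 Δ/Δ tumours.

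In TAM-MG, C3 stood at 42.3 and 47.5 CPM in Rheb1 fl/fl and at 15.3, 19.6 and 189 CPM in Rheb1 Δ/Δ libraries. A single library, 65, was above and the other 2 were below both Rheb1 fl/fl libraries. The log2 difference of 0.73 (standard error 1.14, adjusted p = 0.955, edgeR) therefore rests on library 65 and was -1.36 without it (adjusted p = 0.745). Astrocytes can also make C3. In TAM-MG, 8 astrocyte markers summed to 212 and 521 CPM in Rheb1 fl/fl and to 280 to 405 CPM in Rheb1 Δ/Δ libraries. Over the bulk tumours they summed to 1308 to 4939 CPM. Whether astrocyte RNA had a part in the C3 values was not tested.

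C4b, which encodes C4 in the classical and lectin pathways, differed least in bulk tumours. It stood at 199, 244 and 257 CPM in Rheb1 fl/fl and at 219, 180 and 153 CPM in Cx3cr1-Rheb1 Δ/Δ tumours. The groups overlapped by tumour 36, and the log2 fold change was -0.34 (95% confidence interval -0.97 to 0.28, adjusted p = 0.778, edgeR). In TAM-MG the value was 0.54 (-0.42 to 1.49, adjusted p = 0.801), from 144 and 291 CPM in Rheb1 fl/fl and 343, 240 and 365 CPM in Rheb1 Δ/Δ libraries. In TPM the groups did not overlap in either experiment. Bulk tumours had 422, 411 and 716 against 298, 298 and 285 TPM, and TAM-MG had 68.1 and 116 against 121, 145 and 174 TPM, where 17.3% of genes were higher without overlap. C4a, a near-identical neighbour, can share reads with C4b, so the C4b counts are uncertain.

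The counts and the TPM of Cfb did not match. In bulk tumours it had 0 to 2 counts per library, and in TAM-MG 12 to 227 counts. In the annotation used here, 2246 of its 2825 exonic bases (79.5%) are also exonic in Gm20547, a readthrough gene on the same strand, which is listed at 0 counts in all 11 libraries. Whether the gene counting left out reads that fall in both genes was not tested. The transcript-based TPM of Gm20547 were at most 0.0586 in TAM-MG, whereas those of Cfb were not low, and its levels are therefore given in TPM.

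In bulk tumours Cfb stood at 40.4, 28.1 and 109 TPM in Rheb1 fl/fl and at 8.36, 12.7 and 9.06 TPM in Cx3cr1-Rheb1 Δ/Δ tumours. In TAM-MG it stood at 292 and 278 TPM in Rheb1 fl/fl and at 133, 76.0 and 88.7 TPM in Rheb1 Δ/Δ libraries. The groups did not overlap in either experiment, with all Rheb1 Δ/Δ libraries lower, which held for 10.1% of genes in bulk TPM and for 9.22% in TAM-MG TPM. On the log2(TPM + 1) scale the difference was -2.23 in bulk tumours (standard error 0.54, adjusted p = 0.245, limma) and -1.56 in TAM-MG (standard error 0.32, adjusted p = 0.388, limma). Neither was called. From counts the TAM-MG value was -2.10 (standard error 1.43, adjusted p = 0.778, edgeR), on 7.08 and 2.89 against 2.41, 0.576 and 0.490 CPM, also without overlap (11.5% of genes). Of the 7 members with TPM in both experiments, Cfb alone was lower without overlap in both.

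**Figure D3:**
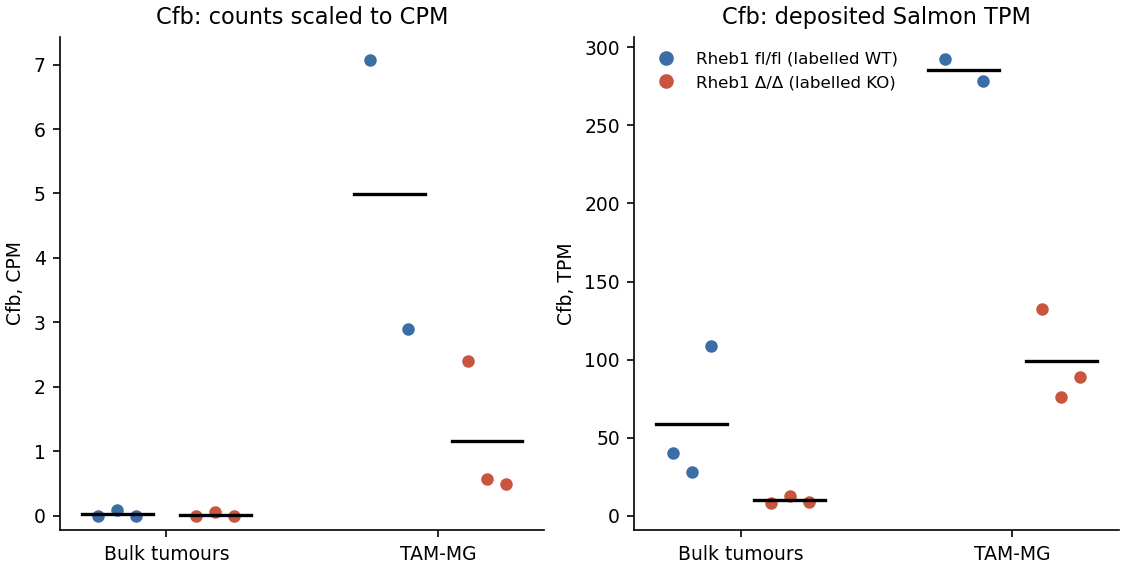
Cfb in every library as CPM from counts (left) and as deposited TPM (right), for bulk tumours and TAM-MG, with Rheb1 fl/fl in blue, Rheb1 Δ/Δ in red and group means as bars. CPM are near 0 in all bulk tumours, whereas TPM reach 28.1 to 109 in Rheb1 fl/fl and 8.36 to 12.7 in Cx3cr1-Rheb1 Δ/Δ tumours.

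Of the receptors, C3ar1 had the largest difference of the tested members in bulk tumours. It stood at 78.04, 54.3 and 92.2 CPM in Rheb1 fl/fl and at 1.15, 0.942 and 5.85 CPM in Cx3cr1-Rheb1 Δ/Δ tumours, from 1404, 1208 and 1477 against 18, 18 and 83 counts. Every Cx3cr1-Rheb1 Δ/Δ tumour was far below every Rheb1 fl/fl tumour, and the group means were 74.8 ± 19.2 CPM and 2.65 ± 2.77 CPM (SD, n = 3 each). On the log2 scale the groups differed by -4.83 (standard error 0.78, adjusted p = 0.103, edgeR), which was not called. The adjusted p was 2.66e-06 in the likelihood ratio test, 2.01e-09 in DESeq2, 0.00152 without the filter on low counts and 0.00650 where every library had to reach 10 counts. It was 0.171 for limma on log2(TPM + 1), where the difference was -2.58, and 0.0694 to 0.517 when 1 library was left out. Of the 8 other settings that kept all libraries, 4 gave a call, and the highest adjusted p among the 8 was 0.276.

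In TAM-MG, C3ar1 stood at 481 and 917 CPM in Rheb1 fl/fl and at 698, 364 and 410 CPM in Rheb1 Δ/Δ libraries. Library 54 lay between the Rheb1 fl/fl libraries and the other Rheb1 Δ/Δ libraries below them. Its log2 fold change was -0.51 (95% confidence interval -1.55 to 0.53, adjusted p = 0.845, edgeR), and 0.04 without library 78. The genotype effect on C3ar1 was higher by 4.34 on the log2 scale in TAM-MG than in bulk tumours (standard error 0.97, adjusted p = 0.129, edgeR). This difference was called by the likelihood ratio test (adjusted p = 0.00199), by DESeq2 (0.00173) and without tumour 26 (5.72, adjusted p = 0.0318). These were 2 of 6 other settings and 1 of 11 edgeR fits without 1 library. Among the rest the adjusted p reached 0.161 in the other settings and 0.268 without 1 library.

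C5ar1 was low in bulk tumours, with 57, 126 and 141 counts in Rheb1 fl/fl tumours 35, 38 and 110. Tumours 36, 37 and 26 of the Cx3cr1-Rheb1 Δ/Δ group had 0, 64 and 1. Tumour 37 was at the level of tumour 35, and the other 2 of its group had almost none. Its log2 fold change was -2.35 (standard error 1.82, adjusted p = 0.754, edgeR). Without tumour 37 it was -7.14 (adjusted p = 0.255, edgeR), and without any other library it ran from -2.68 to -1.77. In TAM-MG, C5ar1 stood at 270 and 126 CPM in Rheb1 fl/fl and at 356, 143 and 139 CPM in Rheb1 Δ/Δ libraries, which overlapped (log2 fold change 0.11, 95% confidence interval -1.26 to 1.48).

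C5ar2 was counted in Rheb1 fl/fl tumours only, with 21, 5 and 219 counts against 0 in all 3 Cx3cr1-Rheb1 Δ/Δ tumours. Most of these counts came from tumour 110. Set against 3 counts in that whole group as the floor, the level was at least 71.0-fold lower in Cx3cr1-Rheb1 Δ/Δ tumours, and at least 10.5-fold lower without tumour 110 (43.3-fold to 115-fold when any other library was left out). This bound covers counting error only. C5ar2 did not pass the filter on low counts in bulk tumours, and without that filter it was not called (adjusted p = 0.262, edgeR). In TAM-MG it was present in every library, at 82.5 and 36.8 CPM in Rheb1 fl/fl and at 35.7, 105 and 103 CPM in Rheb1 Δ/Δ libraries, with overlap and a log2 fold change of 0.45 (95% confidence interval -1.03 to 1.92). Its interaction (9.93, adjusted p = 0.230, edgeR) was called by the likelihood ratio test and rests on the bulk group without counts.

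**Figure D4:**
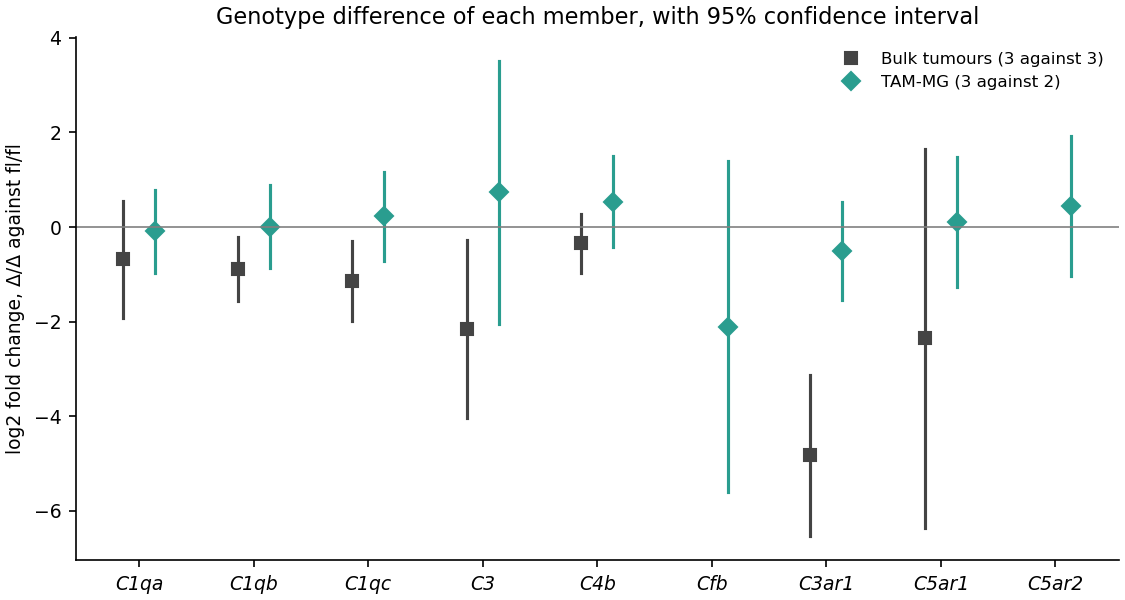
Log2 fold change of each gene, Rheb1 Δ/Δ against Rheb1 fl/fl, with its 95% confidence interval from edgeR's quasi-likelihood fit, in bulk tumours (squares) and TAM-MG (diamonds). In bulk tumours the intervals of C1qb, C1qc, C3 and C3ar1 lie below 0, and in TAM-MG all intervals include 0. Cfb and C5ar2 have no fitted value in bulk tumours.

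Myeloid markers had negative values alongside the complement genes. Of 12 pan-myeloid markers, 12 of 12 had a negative log2 fold change in bulk tumours, from -2.29 (Aif1) to -0.80 (Ly86) with a median of -1.42, and none was called. Their sum was 2167 to 3888 CPM in Rheb1 fl/fl and 713 to 1287 CPM in Cx3cr1-Rheb1 Δ/Δ tumours, without overlap. The median was -1.83 for 10 resting microglia markers, -3.07 for 9 tested markers of monocytes and monocyte-derived macrophages, -1.80 for 6 T cell markers, -0.13 for astrocytes and 0.27 for neurons. In bulk tumours fewer cells of a type and less RNA per cell cannot be told apart. In TAM-MG the median was 0.69 for resting microglia markers (10 of 10 positive) and -0.54 for those of monocytes and monocyte-derived macrophages. Of 7 granulocyte markers, 2 were tested in bulk tumours and differed from each other, Csf3r at -4.80 and S100a8 at -0.06 (median -2.43). In TAM-MG 5 were tested, from -2.39 (Retnlg) to 3.92 (Cxcr2) with a median of 0.58. The median of the pan-myeloid markers in TAM-MG was 0.09, and their sum was 27565 and 40993 CPM in Rheb1 fl/fl and 33051 to 38154 CPM in Rheb1 Δ/Δ libraries. Interferon-gamma targets, listed because interferon-gamma induces several complement genes, had a median of -2.02 in bulk tumours (12 of 12 negative) and -0.20 in TAM-MG (7 of 12 negative), and whether they are tied to the complement genes was not tested.

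Each member that passed the filter on low counts was therefore also set against the summed pan-myeloid markers of the same library. C3ar1 was lower relative to these markers in all 3 Cx3cr1-Rheb1 Δ/Δ tumours, with log2 ratios of -4.79, -5.50 and -5.39 in Rheb1 fl/fl and -9.17, -9.80 and -6.81 in Cx3cr1-Rheb1 Δ/Δ tumours. The difference was -3.37 (two-sided exact permutation test, p = 0.1, which no design of 3 against 3 can go below, and adjusted p = 0.5 over 20 ratios), and -1.37 in TPM. A ratio that was lower without overlap was found for 1.19% of genes tested in bulk tumours. C3ar1 was the only one in this class of the 7 members set against the markers in bulk tumours, which did not include Cfb and C5ar2.

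C1qb, C1qc and C4b went the other way and were higher relative to the markers in all Cx3cr1-Rheb1 Δ/Δ tumours, by 0.64, 0.30 and 1.18 on the log2 scale (exact permutation test, p = 0.1 and adjusted p = 0.5 for each). Because the marker sum itself was lower there, 48.7% of all genes tested had such a ratio, so it is not particular to these members. The ratios of C1qa (0.49), C3 (-0.997) and C5ar1 (-1.001) overlapped between genotypes. In TAM-MG only C4b was without overlap, with a ratio higher by 0.55 (exact permutation test, p = 0.2, the smallest possible there), where 12.6% of genes were higher and 10.5% lower without overlap. The C3ar1 difference there was -0.55 (exact permutation test, p = 0.4).

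**Figure D5:**
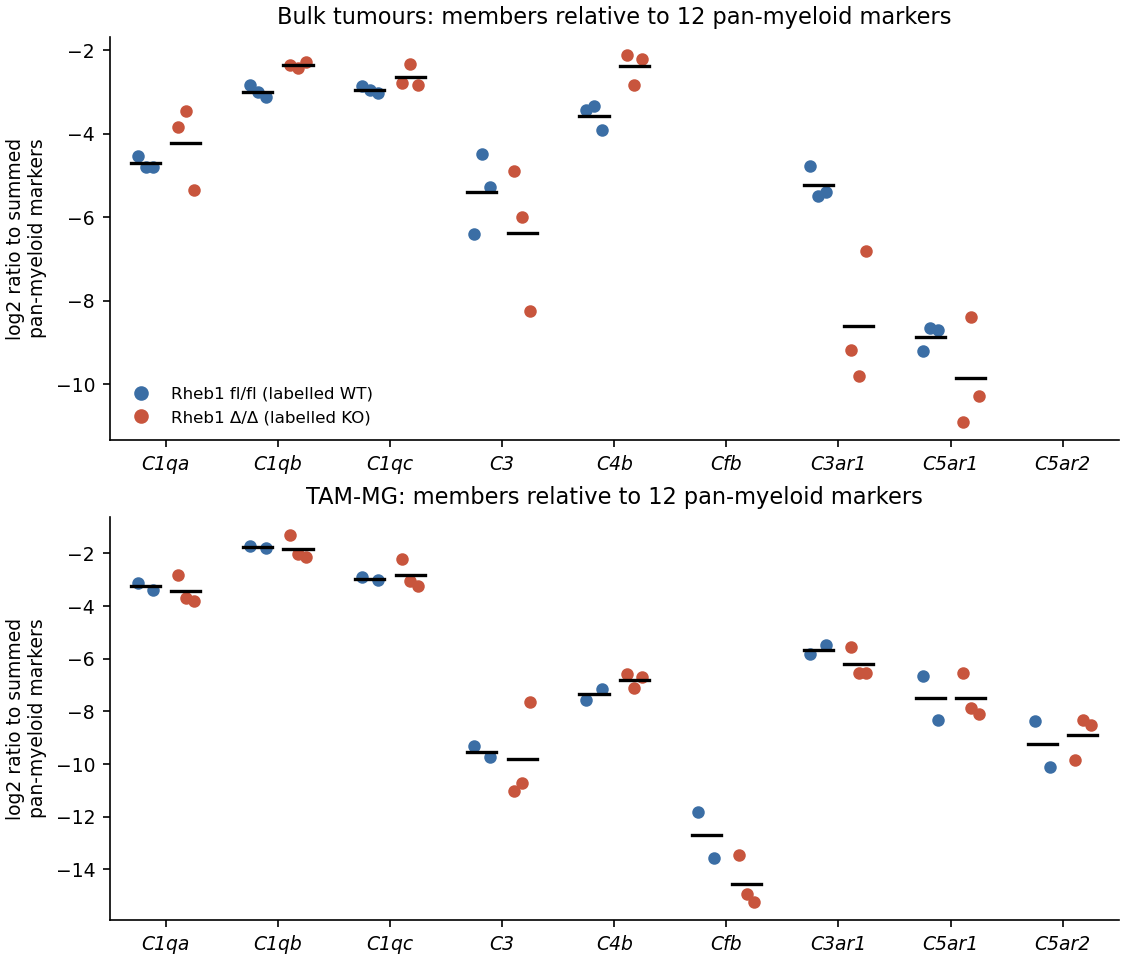
Log2 ratio of each gene to the sum of 12 pan-myeloid markers in the same library, in bulk tumours (top) and TAM-MG (bottom), with Rheb1 fl/fl in blue, Rheb1 Δ/Δ in red and group means as bars. In bulk tumours C3ar1 lies lower and C1qb, C1qc and C4b lie higher in every Cx3cr1-Rheb1 Δ/Δ tumour. Such a lower ratio was found for 1.19% and such a higher one for 48.7% of genes tested. Cfb and C5ar2, which did not pass the filter in bulk tumours, are not shown there.

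Between RNA sources, 8 of 9 members were called higher in TAM-MG than in bulk tumours, against 20.5% of 21342 genes called higher and 32.4% called lower, and the median of all genes was -0.89. C3 was not called. Cfb and C5ar2, among these 8, had not passed the filter on low counts in the fit of bulk tumours. Cfb had 0 to 2 counts per bulk tumour and passed here through its TAM-MG counts, so its call was set in advance. Where every library had to reach 10 counts, 5 of 6 members tested were called higher, as were 2279 of 8311 genes. DESeq2 called 6 of the 7 members to which it gave an adjusted p, again without C3, and gave none to C5ar1 and C5ar2. The log2 differences were 5.92 for C1qa (adjusted p = 5.46e-06, edgeR), 5.87 for C1qb (5.28e-07) and 4.84 for C1qc (1.91e-06). Those of the receptors were 5.96 for C3ar1 (1.08e-05), 6.85 for C5ar1 (0.000184) and 9.08 for C5ar2 (0.000463). These lie in the range of the resting microglia markers (4.64 to 12.02, median 7.31), and the pan-myeloid markers ran from 3.61 to 5.85 with a median of 4.96. Neurons (median -6.93) and astrocytes (-2.78) were lower in TAM-MG.

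C3 and C4b differed from the other members in this comparison. C4b was higher by 0.92 (95% confidence interval 0.38 to 1.46, adjusted p = 0.00990, edgeR), and was no longer called on library size alone (0.33), among WT libraries (0.39) or without library 78 (0.45). Its mean TPM were 11.1 times its mean RPKM in bulk tumours but 2.57 times in TAM-MG, against 2.34 and 2.16 times for C1qa. The cause was not tested, so the C4b counts and their difference between RNA sources are uncertain. C3 was not called (1.21, interval -0.50 to 2.92, adjusted p = 0.207) and was -0.33 among WT libraries. Cfb was called (6.80), but on 0 to 2 counts per bulk tumour. RNA source and experiment cannot be told apart here, since all bulk libraries came from fixed tissue and all TAM-MG libraries from sorted cells.

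Per length, C1qb was the highest member in both sources, at a mean of 248 RPKM in bulk tumours and 9298 RPKM in TAM-MG. In bulk tumours C1qc (137 RPKM), C1qa (83.4), C4b (36.6), C3 (9.33), C3ar1 (8.999), C5ar1 (1.37) and C5ar2 (0.705) followed, and the library ranges of all neighbours in this order overlapped, except those of C4b and C3. In TAM-MG the order was C1qa (3283 RPKM), C1qc (2486), C3ar1 (133), C5ar1 (80.5), C4b (48.6), C5ar2 (20.4) and C3 (12.2), with overlapping ranges between all these neighbours but C1qc and C3ar1. C1qb lay above the range of C1qa in both sources, in bulk tumours by its lowest library at 134.3 RPKM against 134.1 RPKM for the highest of C1qa. TPM placed C4b 2nd in bulk tumours (405 TPM, 11.1 times its RPKM) and Cfb 4th in TAM-MG (174 TPM). The bulk TPM cover 12719 genes and sum to 617081 to 642370 per library, so TPM levels were not compared between sources.

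Of 43 other complement genes listed by role, 24 were tested in bulk tumours and 21 in TAM-MG, of which edgeR called 0, as of all genes. Their median log2 fold change was -0.54 in bulk tumours (16 negative, 8 positive) and -0.37 in TAM-MG (13 negative, 8 positive). Of all genes tested, 49.8% were negative in bulk tumours and 46.5% in TAM-MG. At an unadjusted p under 0.05, 3 were lower and 1 higher in bulk tumours, and 1 was lower in TAM-MG. Over all genes, 883 of 17028 were lower and 650 higher in bulk tumours, and 342 of 14872 were lower in TAM-MG.

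Among initiation genes and proteases, C1ra, which encodes the C1r protease, stood at 65.1 ± 18.5 CPM in Rheb1 fl/fl and 21.8 ± 9.11 CPM in Cx3cr1-Rheb1 Δ/Δ tumours (SD, n = 3 each; log2 fold change -1.58, adjusted p = 0.280, edgeR). C1s1, its partner protease, had -0.93 (adjusted p = 0.632), and in TAM-MG C1ra had -1.35 (adjusted p = 0.746) and Cfp, which encodes properdin, -0.66. Of the terminal components, Hc, which encodes C5, and C8g were at means of 6.15 and 3.29 CPM in bulk tumours, while in TAM-MG none was tested and 5 of 7 had no counts. The regulators Clu (0.51) and Cr1l (-0.30) were not called in bulk tumours, nor was Cr1l (0.075) in TAM-MG.

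The cell-surface receptors had the lowest median of these lists in bulk tumours (-1.04). Itgam, the alpha chain of complement receptor CR3, stood at 89.0 ± 37.5 CPM in Rheb1 fl/fl and 8.67 ± 6.33 CPM in Cx3cr1-Rheb1 Δ/Δ tumours (SD, n = 3 each; log2 fold change -3.35, adjusted p = 0.154, edgeR). All 6 tested receptors were negative there, with C1qbp nearest to 0 among those named (-0.14). In TAM-MG, Itgam had 0.40 (adjusted p = 0.934) and Itgb2, the shared beta chain, -0.37 (adjusted p = 0.929). Itgax, the alpha chain of CR4, stood at 106 ± 37.6 CPM in Rheb1 fl/fl (SD, n = 2) and 25.8 ± 10.2 CPM in Rheb1 Δ/Δ TAM-MG (SD, n = 3), with a log2 fold change of -2.03 (adjusted p = 0.502, edgeR). Between RNA sources, 5 of the 31 other complement genes tested were called higher in TAM-MG, Cr1l (1.498), Itgam (3.97), Itgax (2.51) and Itgb2 (5.33) among them. A further 10 were called lower, C1s1 (-6.82), Hc (-9.70) and Clu (-3.27) among them. These counts are near the shares over all genes tested, 20.5% higher and 32.4% lower.

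Over the 6 bulk libraries the profile most like the mean of the C1q chains was that of Slc29a3 (Pearson r = 0.995 of log2 CPM), followed by Mea1 and Traf2, among 13211 genes with a mean of at least 5 CPM. For C3ar1 they were Cycs, Bbs12 and March9 (r = 0.996 to 0.993), for C3 Cbx6, Csgalnact2 and Zfp710 (0.994 to 0.987), for C4b Snapc1, Zfp850 and Tmem38b (0.998 to 0.986) and for C5ar1 Lix1l, Pmepa1 and Mbd4 (0.999 to 0.992). With 6 libraries of 2 genotypes and so many genes, such values are a description only, and the median r over all genes lay between -0.01 and 0.00. No gene of the marker lists was among these neighbours.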

How the data were processed

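RNA-Seq of 6 bulk GL261 tumours and 5 TAM-MG samples was used. The authors made libraries with SmartSeq2 and Nextera XT, aligned reads with STAR and deposited raw counts per gene, and estimated TPM with Salmon, both on Ensembl release 90 of GRCm38; versions are not given in the sources used here. In both TAM-MG tables the last deposited line names no gene and holds the column total of counts or TPM (100% of the sum over genes), and it was left out. Of 50686 identifiers, 50376 (99.4%) had a name in GENCODE M21 (GRCm38), from which coordinates and exon lengths come.

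Counts were filtered with filterByExpr (minimum count 10, total 15), scaled by TMM and tested with the quasi-likelihood test of edgeR 4.0.16 (R 4.3.3) for bulk tumours and TAM-MG separately, and over all 11 libraries for the interaction and for TAM-MG against bulk tumours. Standard errors were derived from the F statistic. DESeq2 1.42.0, edgeR's likelihood ratio test, other scalings and filters, and limma 3.58.1 on log2(TPM + 1) and log2(TPM + 0.1), where 2 or more libraries had a TPM of 1 or more, were alternatives. Ratios are log2(CPM + 0.5) differences within a library, compared by exact permutation tests. RPKM are CPM per kilobase of exon union. The p-values measure the spread between these libraries. The test was checked on simulated data.

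The members and lists were chosen with earlier results of these data known. All 9 members are named, and of 43 other complement genes the 2 with the highest mean CPM of each role in each experiment and those with an unadjusted p under 0.02 and a 1.5-fold change, except for an item that is not reported here. Genes of like profile are the 3 with the highest r.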

Additional observations from a re-analysis of the deposited data

How the results depend on the processing

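No paired analysis was possible because the groups compared share no replicate numbers.

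Members called in bulk tumours numbered 1, C3ar1, under the likelihood ratio test, DESeq2, no filter on low counts, and at least 10 counts in every library, against 0 in the main test. Over all genes these settings called 383, 474, 102 and 62, limma on either TPM scale called 1, and leaving out 1 library gave 0 to 8. In TAM-MG 0 members were called under any of these settings, and all genes called numbered 245 (likelihood ratio test) and 477 (DESeq2), and 0 under the others. For the difference in genotype effect, the likelihood ratio test called 2 members (C3ar1, C5ar2) and 835 genes, DESeq2 1 (C3ar1) and 1206, RLE scaling 8 genes, no filter 76 and at least 10 counts in every library 3. Leaving out 1 library gave 0 to 1 members and 1 to 361 genes. For TAM-MG against bulk tumours, 5 members of 6 tested and 4571 genes were called where every library had to reach 10 counts, 6403 genes among WT and 6789 among KO libraries. DESeq2 gave 7 members an adjusted p there and called 6. The median of all genes there was -0.89, -1.45 on library size alone and -0.02 with that stricter filter. C4b was not called on library size alone (0.33), among WT libraries (0.39) or without library 78 (0.45), C5ar2 not among WT libraries (4.03), and C3 was -0.33 among WT libraries.

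No fold change of a member in bulk tumours changed sign under any alternative tried. In TAM-MG, where none was called, signs changed when 1 library was left out, over ranges of -0.41 to 0.069 (C1qa), -0.25 to 0.27 (C1qb), -0.11 to 0.48 (C1qc), -1.36 to 1.23 (C3), -0.88 to 0.038 (C3ar1), -0.48 to 0.78 (C5ar1) and -0.0078 to 1.16 (C5ar2). C3 changed sign without library 65 (-1.36), and C3ar1 and C5ar2 without library 78. C1qa was 0.030 and 0.030 by limma on log2(TPM + 1) and log2(TPM + 0.1), and C3 was -0.064 by the latter. The interaction of Cfb ran over -3.93 to 0.45 without 1 library. The cause of these changes was not tested.

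Leaving out 1 library moved the C1qb to C1qa ratio difference in bulk tumours over -0.46 to 0.58 and that of C1qc over -0.66 to 0.075. In TAM-MG the ratio differences to pan-myeloid markers ran over -0.33 to 0.084 for C1qb, -0.18 to 0.34 for C1qc, -1.33 to 0.35 for C3, -0.82 to 0.84 for C5ar1 and -0.52 to 1.21 for C5ar2, and C1qb was 0.080 in TPM. Against resting microglia markers they were -0.24 (C1qc), -0.37 (C5ar1) and -0.030 (C5ar2), and for C5ar1 -0.060 with the mean of log2 markers and -0.094 without Ctss, the latter pair of alternatives chosen after seeing the data. By TPM the places in the order of levels, among the 7 members with TPM in bulk tumours, were 4 for C1qa, 3 for C1qc, 6 for C3, 2 for C4b, 5 for Cfb and 7 for C3ar1, against 3, 2, 5, 4, 7 and 6 per length, and in TAM-MG 9 for C3, 4 for Cfb, 7 for C3ar1 and 8 for C5ar2, against 8, 9, 4 and 7.

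C5ar1 and C5ar2 had few or no counts in bulk tumours, so that small differences of these genes were not detectable at this depth. Cfb had 0 to 2 counts there but 8.36 to 109 TPM in the same libraries, so its low counts are not shown to be a limit of depth.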
